A study of Homo sapiens with 44 samples.

Results

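Human embryonic stem cells of the established line H1 were compared at day 3 and day 1 of differentiation towards cardiovascular cells. The comparison takes the 3 wells labelled day 3 against the 3 wells labelled day 1, 6 of the 44 wells of the series, and covers every gene with enough counts to test, 22955 of the 60499 genes in the tables. All 6 wells were coated with the laminins LN-521 and LN-221 and were kept in RPMI medium supplemented with B27 lacking insulin. Both groups had received CHIR99021 at day 0, a small molecule that switches on Wnt signalling by blocking GSK3. IWP2, which blocks the secretion of Wnt proteins, is added at day 3, and the labels name CHIR99021 but not IWP2 for the medium of these wells. No well without CHIR99021 is labelled day 1 or day 3, so the effect of CHIR99021 and that of time in culture cannot be told apart. All wells come from 1 line, and nothing in the labels says that the wells of a day were cultures begun separately. The p-values therefore measure the spread between wells, estimated over all 44 wells of the series and not over these 6 alone.

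In the embryo, cells of the epiblast move through the primitive streak, where Wnt and Nodal signals keep the transcription factors TBXT, EOMES and MIXL1 on. Cells that leave it become mesoderm or definitive endoderm. MESP1 marks the earliest mesoderm of the heart, and SOX17 and FOXA2 mark endoderm. BMP, FGF and retinoic acid signals then help to pattern the mesoderm from front to back and from midline to side.

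Total estimated counts were 28263502 to 30546757 per day 1 well and 24927986 to 25787305 per day 3 well. RNA integrity scores were 9.6 to 10. Each of lanes 1, 2 and 3 held 1 well of each day. Spearman's rho over genes between wells of a day was 0.983 to 0.991. The wells of the 2 days lay apart on the first principal component of the 6 wells, which held 75.0% of the variance. The second held 8.52% and set day 3 replicate 1 (33.8) apart from the other day 3 wells (-9.20 and -22.8). It also set day 1 replicate 2 apart from the other day 1 wells. In that well 86 genes lay more than 4-fold below both other day 1 wells that had at least 1 CPM (a count relative to the scaled size of its library), against 4 such genes in day 1 replicate 1 and 0 in replicate 3. Several are markers of mesenchyme or neural tissue, such as PRRX1 at 6.74, 0.161 and 8.22 CPM in day 1 replicates 1, 2 and 3. With day 1 replicate 2 left out, 2274 genes were called higher and 1484 lower, against 2533 and 1560 with all wells.

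From day 1 to day 3 most transcription factors of the streak fell, and most genes of cardiac and lateral plate mesoderm and of definitive endoderm rose. Calls required an adjusted p (Benjamini-Hochberg) under 0.05 in edgeR's quasi-likelihood test together with a log2 fold change of 1 or more, up or down. By this rule 17.8% of all tested genes were called, 11.0% higher and 6.80% lower at day 3. These are the shares to set beside each list count below. Rises were larger than falls. The median log2 fold change was 2.06 among the genes called higher and -1.58 among those called lower, and a change of at least 4 on this scale was seen in 417 rises and 101 falls. The CPM ranges of the 2 days did not overlap in 4013 of the 4093 called genes, against 57.0% of all tested genes. Of these calls 479 rises and 156 falls were in genes with a mean under 1 CPM on their higher day. By gene class, 20.0% of 16855 protein-coding genes and 13.6% of 4076 long non-coding genes were called.

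**Figure D1:**
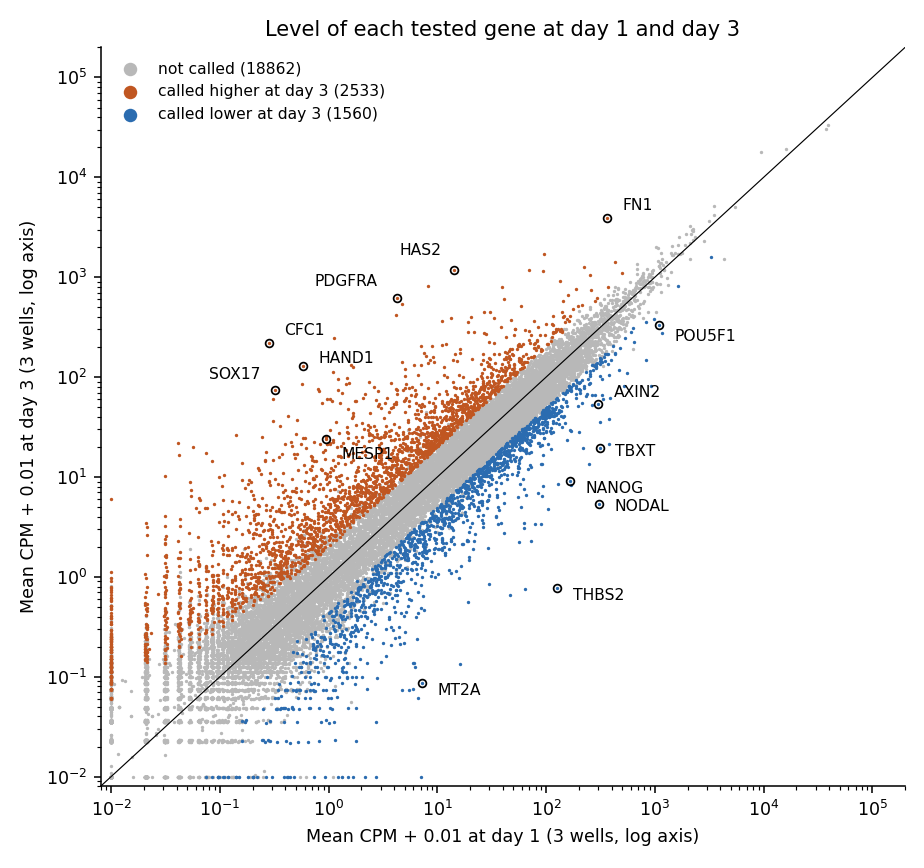
Mean CPM plus 0.01 of each tested gene at day 1 (x axis) and day 3 (y axis), 3 wells each, on log axes; the line marks equal levels. The 2533 genes called higher (orange) reach farther from the line than the 1560 called lower (blue), and the ringed genes are named in the text.

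MESP1, a basic helix-loop-helix factor on chromosome 15 (89748661 to 89751310, minus strand, GRCh38), stood at 0.809, 1.16 and 0.841 CPM in the day 1 wells and at 16.4, 29 and 26.1 CPM at day 3. The ranges lay far apart, and the log2 fold change was 4.66 (SE 0.64, adjusted p 4.8e-07). Its neighbour MESP2 had 0.371, 0.418 and 0.249 CPM at day 1 and 15.7, 41.1 and 41.1 CPM at day 3, with day 3 replicate 1 lowest for both genes (log2 fold change 6.54, SE 0.75, adjusted p 1.2e-08). Among the 12 groups of the series both had their highest mean at day 3, and at day 5 MESP1 stood at 1.30 ± 0.560 CPM (SD, n = 5) and MESP2 at 0.829 ± 0.294 CPM (SD, n = 5). SOX17, an endoderm factor, had 0.270, 0.161 and 0.498 CPM at day 1 and 62.7, 70.9 and 86.6 CPM at day 3. It too was highest at day 3 and stood at 7.93 ± 2.76 CPM (SD, n = 5) at day 5. On values scaled for transcript length, day 3 levels were 21.4 ± 8 TPM for MESP1, 21.9 ± 10.9 TPM for MESP2 and 23.4 ± 5.63 TPM for SOX17 (SD, n = 3 each), so these did not differ beyond their spread. RNA was taken from whole wells, where more cells of a type and more RNA per cell cannot be told apart.

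**Figure D2:**
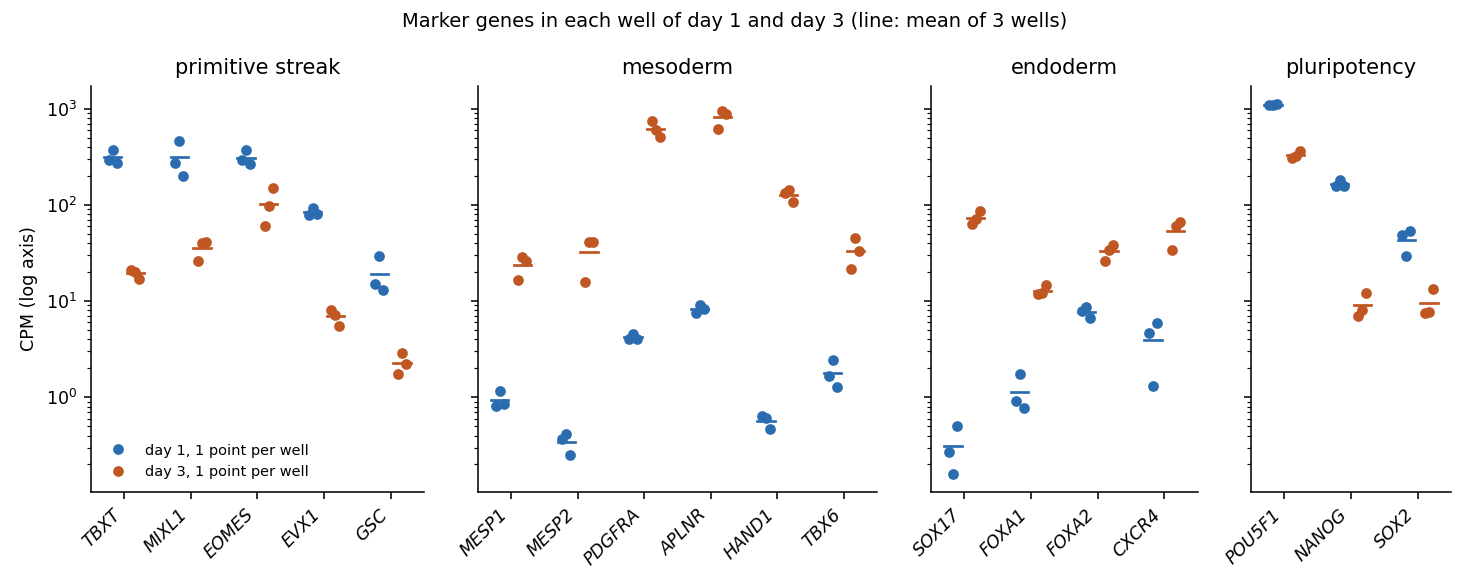
CPM (log axis) of marker genes of 4 classes, with 1 point per well and a line at the mean of the 3 wells, day 1 in blue and day 3 in orange. For each gene shown, picked from longer lists, the points of the 2 days do not overlap, as in 57.0% of all tested genes. The streak and pluripotency genes shown are lower and the mesoderm and endoderm genes shown are higher at day 3. Not shown are, among others, LHX1 of the streak list, which rose, and KDR, CER1 and HHEX, mesoderm and endoderm genes that were not called.

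Of 11 transcription factors of the primitive streak, 8 fell, 1 rose and 2 were not called, with a median log2 fold change of -3.07 against 0.07 over all tested genes. TBXT, the T-box factor that defines the streak (chromosome 6, 166157656 to 166168700, minus strand), had 291.9, 369.4 and 271.5 CPM at day 1 and 21.1, 20.1 and 17.1 CPM at day 3. The fall was 16-fold on the means (log2 fold change -4, SE 0.53, adjusted p 3.1e-07), and TBXT was still above its day 0 level of 0.327 ± 0.136 CPM (SD, n = 3). The homeobox factor MIXL1 went from 271.7, 466.1 and 200.4 CPM to 26.0, 40.2 and 40.9 CPM, a log2 fold change of -3.13 (SE 0.51). EVX1 and GSC, homeobox factors of the posterior and the anterior streak, changed by -3.60 and -3.07. The homeobox gene CDX1 changed by -4.45 (65.1 to 123.4 CPM down to 3.02 to 7.19) and NKX1-2 by -4.20.

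EOMES fell less than TBXT, with 290.5, 372.4 and 267.9 CPM at day 1 and 59.7, 97.7 and 148.0 CPM at day 3 (log2 fold change -1.61, SE 0.50, adjusted p 0.013). This call was lost without day 1 replicate 2 (-1.47, adjusted p 0.051) or day 3 replicate 1 (-1.35, adjusted p 0.08). CDX2 changed by -2.68 (adjusted p 0.0094), and without day 3 replicate 3 its adjusted p was 0.061. LHX1, a LIM homeobox factor of the anterior streak and its derivatives, was the member that rose, from 1.06 to 1.61 CPM at day 1 to 27.1, 64.4 and 73.7 CPM at day 3 (log2 fold change 5.46, SE 0.66, adjusted p 4.2e-08). FOXH1, a partner of SMAD proteins in Nodal signalling, was not called (-0.67, adjusted p 0.21), nor was CDX4 (-0.36, adjusted p 0.75).

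Of 27 genes of cardiac and lateral plate mesoderm, 22 rose and 0 fell, with a median of 4.18; between 20 and 22 rose when any 1 well was left out. On log2(TPM + 1) values the median was 2.28, and 1.96 with TPM rescaled to protein-coding genes. PDGFRA, the receptor for platelet-derived growth factors that marks nascent mesoderm, had 3.99, 4.56 and 4.05 CPM at day 1 and 738.3, 601.7 and 512.2 CPM at day 3, 147-fold higher on the means (log2 fold change 7.20, SE 0.58). APLNR, the apelin receptor, had 7.48 to 9.00 CPM at day 1 and 615.5, 938.0 and 885.4 CPM at day 3 (6.62, SE 0.49). HAND1, a helix-loop-helix factor of the first heart field and extraembryonic mesoderm, had 0.467 to 0.640 CPM at day 1 and 134.0, 142.2 and 107.2 CPM at day 3 (7.79, SE 0.67). In all 3 genes each day 3 well lay above each day 1 well, and ranges without overlap were seen in 57.0% of all tested genes.

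The GATA factors, zinc finger proteins of heart and gut, rose together. GATA4 went from 13 to 15.7 CPM to 55.9 to 59.9 CPM (log2 fold change 2.06), GATA5 rose by 5.16 and GATA6 by 4.08, or by 4.80 without day 1 replicate 2, where GATA6 was at 9.19 CPM against 3.30 and 2.80 CPM in the other wells. The forkhead factors FOXC1 (5.88), FOXF1 (4.49) and FOXC2 rose. FOXC2 had at most 2 counts in any day 1 well and was at least 66.3-fold higher at day 3 against a floor of 3 counts per well. ISL1, a marker of the second heart field, rose from 0.771 to 1.15 CPM to 24.8 to 25.8 CPM, and TBX20, a T-box factor of the heart, from 0.400 to 0.840 CPM to 10.8 to 12.2 CPM. IRX3 (6.48), TMEM88 (5.90), SNAI2 (5.75) and TBX3 (4.14) rose as well.

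HAND2 rested more on 1 well: it had 20.0 CPM in day 3 replicate 1 and 5.92 and 5.85 CPM in the other wells, and its log2 fold change of 3.46 was 2.60 without replicate 1. KDR, a VEGF receptor of the earliest blood and heart precursors, was already at 217 ± 16 CPM at day 1 and was not called at 311.1 ± 57.6 CPM (SD, n = 3 each, 0.52, adjusted p 0.36). NKX2-5, a factor of later cardiac precursors, was not called (adjusted p 0.58).

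Genes of contracting heart muscle were mostly not called. Of 12, 3 rose and 1 fell. TNNT2, cardiac troponin T, was at 4.86 ± 0.917 CPM at day 1 and 4.98 ± 1.73 CPM at day 3 (SD, n = 3 each), against 83.4 ± 28.0 CPM at day 5 (SD, n = 5). MYL4, an atrial myosin light chain, rose from 2.43 to 3.92 CPM to 55.9, 16.6 and 12 CPM (3.08, or 2.09 without day 3 replicate 1), and the slow skeletal troponin TNNI1 rose by 1.75. MYH7, a myosin heavy chain of heart muscle, followed the sequencing lane and not the day, with 0.897, 11.0 and 5.39 CPM at day 1 and 1.2, 12 and 6.11 CPM at day 3 in lanes 1, 2 and 3. The library with the most MYH7 in these lanes had 1258, 11367 and 7586 CPM, and the part of other libraries of the lane in these low values was not tested.

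Of 12 tested genes of paraxial and presomitic mesoderm, 6 rose and 0 fell. TBX6, a T-box factor of presomitic mesoderm, rose from 1.28 to 2.41 CPM to 21.7, 45.1 and 32.9 CPM (4.21, SE 0.49). The Notch ligand genes DLL1 (1.94) and DLL3 (3.74), the Notch-modifying LFNG (2.27) and the somite boundary gene RIPPLY2 (4.38, or 5.47 without day 1 replicate 2) rose too. MSGN1, TCF15 and MEOX1, further markers of presomitic mesoderm and somites, were not called and stood at 0.679 to 1.55, 2.11 to 3.09 and 0.151 to 0.410 CPM at day 3.

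Of 15 genes of definitive endoderm, 10 rose and 0 fell, with a median of 2.09, or 1.19 on rescaled log2(TPM + 1) values. SOX17 led with a log2 fold change of 7.86 (SE 0.64, adjusted p 4.1e-12). FOXA2, a forkhead factor of endoderm and anterior streak, went from 7.92, 8.64 and 6.63 CPM to 25.9, 34.3 and 38.2 CPM (2.09, adjusted p 0.00025). FOXA1 (3.49), HNF4A (5.58), PRDM1 (3.49), CXCR4 (3.77), EPHB3 (3.98) and KIT (1.38) rose. CER1, a secreted antagonist of Nodal, BMP and Wnt made by anterior endoderm, was not called at 21.1, 48.8 and 18.9 CPM at day 1 and 21.9, 25.6 and 40.4 CPM at day 3, ranges that overlap. HHEX, a homeobox factor of anterior endoderm, was not called either (1.00, adjusted p 0.27).

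Of 16 secreted proteins of liver and visceral endoderm 3 rose, but 0 to 2 did when any 1 well was left out, and AFP (4.28 to 6.44 CPM at day 3) and TTR (0.415 to 1.01 CPM) were not called. Of 15 endothelial and blood genes 5 rose and 1 fell, and 2 or 3 rose when any 1 well was left out. GATA2 rose from 0.161 to 0.280 CPM to 3.89 to 4.81 CPM, PECAM1 from 0.0321 to 0.311 CPM to 1.49 to 2.08 CPM, and LMO2 fell from 4.72 to 7.07 CPM to 1.23 to 1.77 CPM. Of 12 tested neural genes 1 was called, a share near the 11.0% called higher among all tested genes. It was the homeobox gene OTX2, which is also on the endoderm list and rose from 27.0, 35.6 and 23.8 CPM to 36.2, 66.7 and 109.8 CPM (1.30, adjusted p 0.038). That call held in 1 of the 6 fits with a well left out, the one without day 3 replicate 1. SOX1 and PAX6, the defining neural genes, were at 0 to 0.340 CPM and 1.19 to 1.41 CPM at day 3. Of 12 tested trophoblast and amnion genes 2 rose, GATA3 (0.0623 to 0.135 CPM up to 9.46 to 10.7 CPM) and ISL1, which is also a heart gene, and 2 fell, IGFBP3 and KRT7, of which 0 to 2 stayed called when any 1 well was left out. TFAP2A (0.792 to 1.27 CPM at day 3) and VTCN1 (0.149 to 0.358 CPM) were not called.

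**Figure D3:**
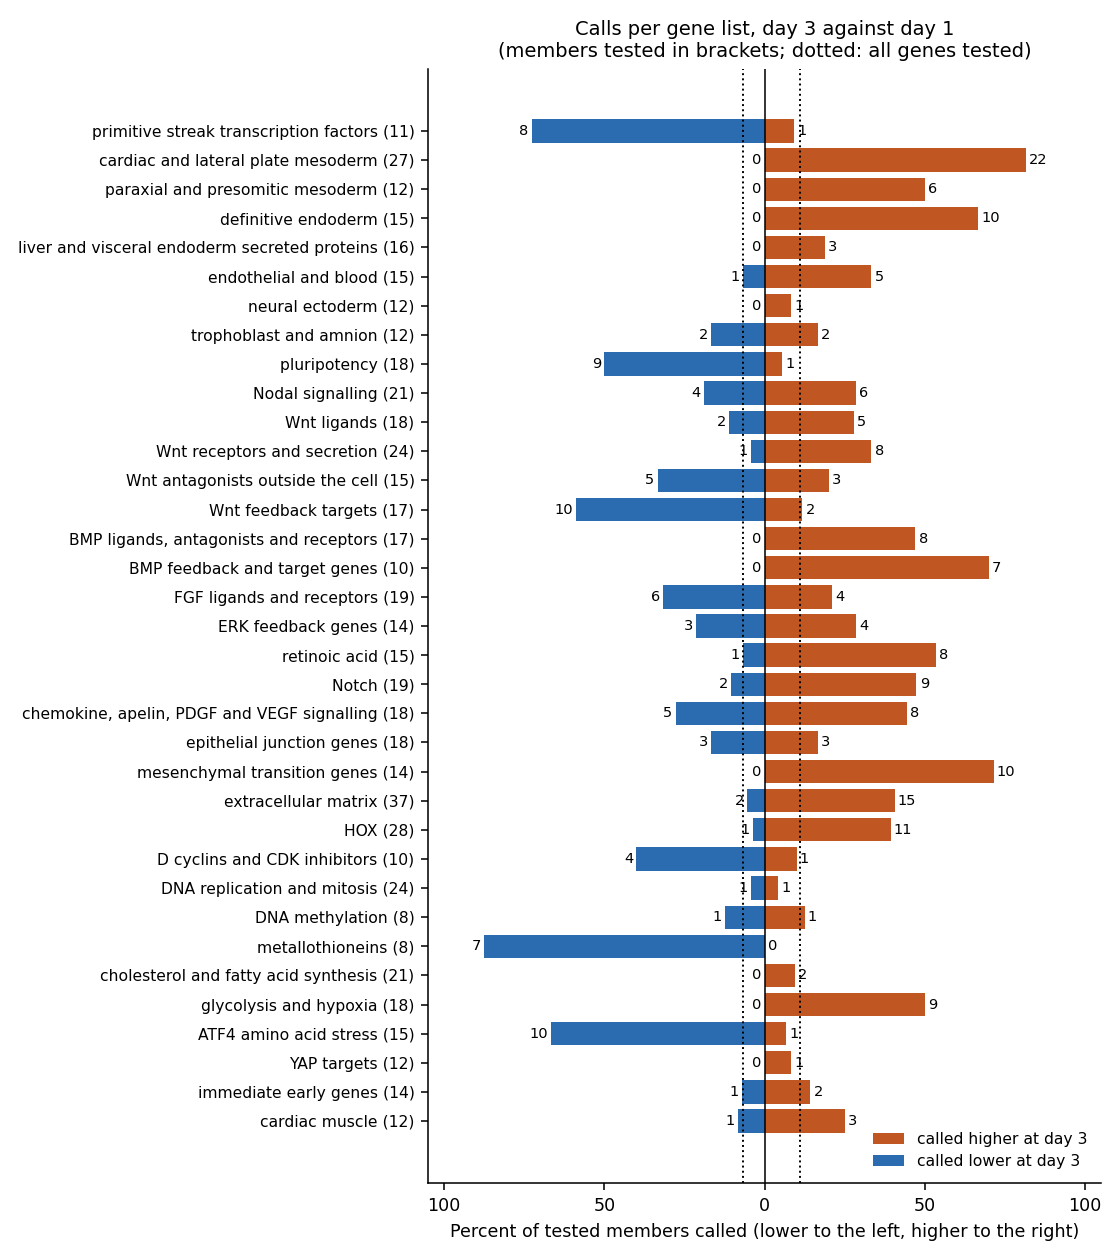
Share of the tested members of each gene list called higher (orange, right) and lower (blue, left) at day 3, with the number called beside each bar and the shares among all tested genes (11.0% and 6.80%) as dotted lines. Mesoderm, endoderm, mesenchymal and BMP target lists extend to the right, and streak, pluripotency, Wnt feedback, ATF4 and metallothionein lists to the left.

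Of 18 genes of pluripotency, 9 fell, 1 rose and 8 were not called, and the members did not fall evenly. NANOG, a homeobox factor, went from 157.5, 180.0 and 157.9 CPM to 6.94, 7.98 and 12.1 CPM (-4.19, SE 0.41, adjusted p 2.8e-10). L1TD1, an RNA-binding protein, changed by -2.33, DNMT3B, a DNA methyltransferase, by -1.38 and DPPA4 by -1.34. POU5F1 went from 1092, 1090 and 1108 CPM to 305.3, 320.8 and 366.5 CPM, 3.31-fold lower on the means (-1.73, SE 0.57, adjusted p 0.019). Although its ranges lay well apart, the adjusted p of POU5F1 was 0.062 without day 3 replicate 1 or replicate 2. SOX2 had already stood at 43.6 ± 12.7 CPM at day 1 against 292 ± 20.8 CPM at day 0, and was at 9.49 ± 3.32 CPM at day 3 (SD, n = 3 each; -2.20, adjusted p 0.031); without day 1 replicate 1 or 3 or day 3 replicate 1 or 2 the adjusted p was 0.069 to 0.11. LIN28A, an RNA-binding protein that blocks let-7 maturation, was at 1513 to 1743 CPM in all 6 wells (0.06, adjusted p 0.91), and SALL4 was not called (0.34).

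In the Nodal pathway, 6 of 21 genes rose and 4 fell, and both ligand genes and inhibitor genes were among the rises and the falls. Nodal is a TGF-beta ligand of the streak that needs a co-receptor of the EGF-CFC family. NODAL itself had 313.9, 318.6 and 290.3 CPM at day 1 and 10.8, 2.87 and 2.49 CPM at day 3, 57.0-fold lower on the means (-5.83, SE 0.50, adjusted p 1.7e-11). Without day 3 replicate 1, the highest of the day 3 wells, the change was -6.86. At day 0 NODAL had been at 5.98 ± 0.587 CPM (SD, n = 3). GDF3, a related ligand, fell by 2.77, and GDF1 rose by 2.02 from 0.794 to 1.36 CPM to 3.34 to 6.6 CPM, in a transcript shared in part with CERS1.

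Of the EGF-CFC co-receptors, CFC1 rose. CFC1 (chromosome 2, 130592168 to 130599575, minus strand) had 0.202, 0.290 and 0.328 CPM at day 1 and 246.4, 238.5 and 170.7 CPM at day 3. Its near-identical copy CFC1B (chromosome 2, 130521197 to 130528604, plus strand) was called higher as well, and since reads could be split between the copies their sum is the safer value: 0.352 ± 0.130 CPM at day 1 and 224 ± 42.0 CPM at day 3 (SD, n = 3 each). TDGF1, which encodes the co-receptor Cripto, went from 313.5, 417.3 and 274.6 CPM to 79.4, 111.0 and 194.5 CPM, ranges that did not overlap, yet it was not called (-1.39, SE 0.57, adjusted p 0.064). Without day 3 replicate 3 TDGF1 was called at -1.83 (adjusted p 0.045). Scaled for length, day 3 levels were 150.2 ± 18.6 TPM for CFC1 and 76.4 ± 40.9 TPM for TDGF1, against 0.173 ± 0.0306 and 189.2 ± 41.0 TPM at day 1 (SD, n = 3 each). At day 5 CFC1 was at 164 ± 27.9 CPM and TDGF1 at 10.3 ± 5.70 CPM (SD, n = 5 each).

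The calls for the Lefty inhibitors of Nodal, LEFTY1 and LEFTY2, also parted. How reads were split between these related genes was not tested. LEFTY1 fell from 14.1, 30.4 and 13.4 CPM to 0.461 to 0.590 CPM (-5.13), and LEFTY2 rose from 2.74 to 3.69 CPM to 4.90, 19.4 and 28.6 CPM (2.51, adjusted p 0.00017). FST, which binds activin, fell from 439.1, 264.0 and 420.5 CPM to 23.2, 19.3 and 21.7 CPM (-4.13). INHBA, which encodes the activin A subunit, rose from 0.193 to 0.685 CPM to 5.40 to 7.07 CPM (3.98, or 4.58 without day 1 replicate 3), and FURIN, a protease that can process Nodal, rose by 1.80. The receptors ACVR1B and ACVR2B and the transducers SMAD2, SMAD3 and SMAD4 were not called, with log2 fold changes of 0.36 to 0.82.

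**Figure D4:**
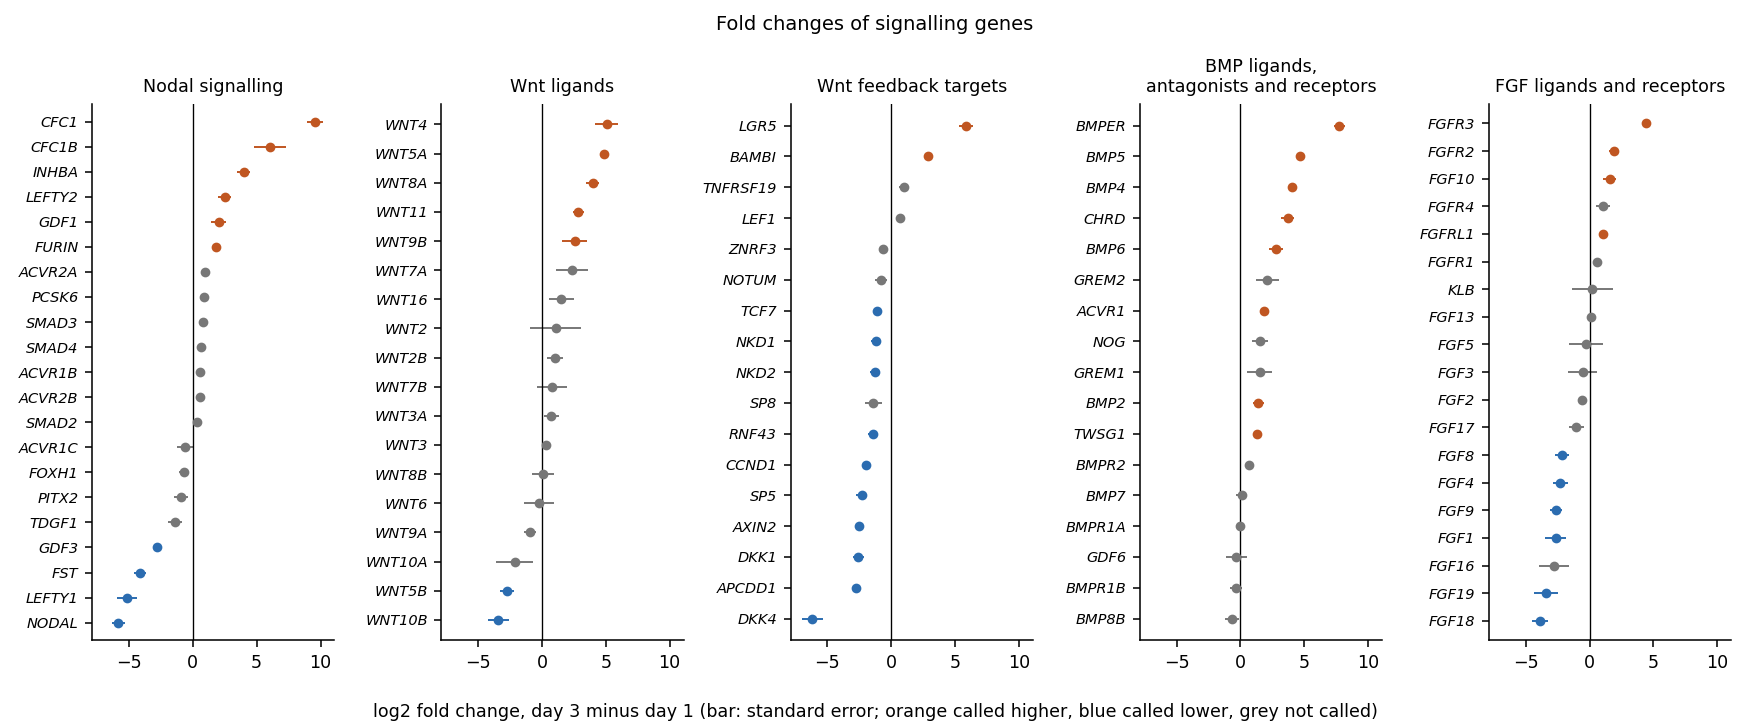
Log2 fold change, day 3 minus day 1, with its standard error for each tested member of 5 signalling lists, ordered within each list. Orange points were called higher, blue lower and grey not called; NODAL lies lowest and CFC1 highest in the Nodal list, and DKK4 lies lowest and LGR5 highest among Wnt feedback targets.

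Wnt feedback targets, which the pathway turns on in its own cells, mostly fell although both groups had received CHIR99021. Of 17, 10 fell and 2 rose, with a median of -1.29; 8 to 10 fell when any 1 well was left out. AXIN2, part of the complex that degrades beta-catenin, had 320.5, 243.5 and 336.8 CPM at day 1 and 53.0, 58.5 and 48.3 CPM at day 3 (-2.49, SE 0.21, adjusted p 1.8e-11). APCDD1 changed by -2.78 and the cyclin gene CCND1 by -1.98. The secreted inhibitor DKK4 fell from 36.6, 71.4 and 33.1 CPM to 0.318, 0.894 and 0.717 CPM, 73.2-fold on the means, and DKK1 by 2.57. SP5, a zinc finger factor, went from 271.3, 248.0 and 270.0 CPM to 49.1, 57.2 and 52.4 CPM (-2.31, SE 0.44, adjusted p 8.9e-05). The members that rose were LGR5, a receptor for R-spondins (1.12 to 1.90 CPM up to 112.0, 73.9 and 73.4 CPM), and BAMBI, a decoy receptor that is also a BMP target (19 to 22.1 CPM up to 216.5, 128.6 and 114.4 CPM). LEF1, a transcription factor of the pathway, was not called (0.67, adjusted p 0.12).

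The promoter of SP5 is shown because SP5 was the only list member, of the 10 with a sequence in the RefSeq table, with the TCF/LEF motif CTTTGAT on either strand in the 250 bases before its start. That motif was in 2.28% of 27305 promoters. Capitals mark the match, 109 bases before the start (chr2:170715087-170715336, plus strand, GRCh38.p14, 5′ to 3′).
SP5: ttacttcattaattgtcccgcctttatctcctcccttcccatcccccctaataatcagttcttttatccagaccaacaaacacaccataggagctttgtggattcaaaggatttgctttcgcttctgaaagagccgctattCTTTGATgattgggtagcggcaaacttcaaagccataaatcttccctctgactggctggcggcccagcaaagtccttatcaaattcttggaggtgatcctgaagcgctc

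Wnt ligand genes were called in both directions. Of 18 tested, 5 rose, 2 fell and 11 were not called. The rise of WNT9B (2.55) was lost whichever well was left out (adjusted p 0.053 to 0.16), and 4 rose in each such fit. WNT5A, a ligand known mainly for signalling without beta-catenin, had 7.51, 5.85 and 7.69 CPM at day 1 and 196.8, 216.6 and 200.1 CPM at day 3 (4.86, SE 0.31, adjusted p 9.3e-15). WNT8A, a ligand of the streak, rose from 3.77 to 5.69 CPM to 67.3, 78.1 and 79.5 CPM, WNT4 by 5.06 and WNT11, a ligand of heart mesoderm, by 2.84. WNT5B fell from 99.2, 62.4 and 110.2 CPM to 21.0, 11.9 and 7.92 CPM (-2.74) and WNT10B by 3.42. WNT3, which starts the streak in the mouse, was not called at 35.2 to 45.2 CPM and 39.7 to 52.6 CPM.

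Of 24 genes for Wnt receptors and Wnt secretion, 8 rose and 1 fell. FZD7 went from 130.1, 167.7 and 130.1 CPM to 298.8, 449.4 and 437.1 CPM (1.47), while FZD10 fell by 2.80. LGR4 rose by 2.55 and WLS, which carries Wnt proteins to the cell surface, by 1.23. Among 15 secreted antagonists, 3 rose and 5 fell. SFRP1 rose from 22.7, 9.99 and 24.3 CPM to 279.4, 364.9 and 428.4 CPM (4.23), and SFRP5 (3.83) and DKK3 (2.30) rose with it. Besides DKK1 and DKK4, the lower ones were SFRP2 (-1.93), DKK2 (-3.50) and WIF1 (-2.76). WIF1 lost its call without day 3 replicate 1 (adjusted p 0.057), and SFRP2 without any well other than day 1 replicate 1 (adjusted p 0.056 to 0.093). DKK2 was at -4.10 without day 1 replicate 2 and -2.82 without day 1 replicate 3.

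BMP genes moved one way. Of 17 ligands, antagonists and receptors 8 rose and 0 fell. BMP4, a ligand that induces mesoderm, had 9.80, 2.70 and 12.2 CPM at day 1 and 158.1, 142.3 and 112.2 CPM at day 3 (4.06, SE 0.36, adjusted p 2.6e-11). BMP5 rose by 4.69 and BMP6 by 2.80. BMPER, a secreted modulator of BMP, had 1.08, 0.996 and 1.28 CPM at day 1 and 279.8, 243.7 and 208.9 CPM at day 3, 218.6-fold higher on the means (7.76, SE 0.44, adjusted p 6.2e-16). Another antagonist, CHRD, rose by 3.70, and of the receptors ACVR1 rose by 1.83 while BMPR1A was not called (-0.01).

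Of 10 genes that BMP signalling is known to turn on, 7 rose and 0 fell, with a median of 2.51. The inhibitors of differentiation ID1 and ID4 rose by 1.98 and 3.85, and ID2 and ID3 were not called at 0.92 and 0.74. Without day 1 replicate 3, ID2 was called at 1.01 (adjusted p 0.016). The inhibitory SMAD6 went from 6.87, 14.0 and 8.56 CPM to 98.1, 93.5 and 78.8 CPM (3.20), and SMAD9 from 0.934 to 1.12 CPM to 28.0 to 32.2 CPM (4.87). The homeobox genes MSX1 (2.14) and MSX2 (3.53) rose too.

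Of 19 tested FGF ligand and receptor genes 6 fell, all of them ligands, and 4 rose, of which 3 encode receptors; 4 to 6 fell and 2 to 4 rose when any 1 well was left out. FGF8, a ligand that streak cells need to migrate, went from 21.2, 29.4 and 23.2 CPM to 4.81, 6.89 and 5.09 CPM (-2.14). FGF4, from 43.5, 91.6 and 29.4 CPM to 10.2 to 12 CPM, changed by -2.29, but by -1.72 with an adjusted p of 0.055 without day 1 replicate 2. FGF19 fell by 3.42 and FGF18 by 3.87. FGFR3 rose from 5.33 to 6.85 CPM to 138.1, 134.4 and 120.8 CPM (4.44, SE 0.35, adjusted p 1.8e-12) and FGFR2 by 1.88, while FGFR1, at 389.5 CPM on the day 3 mean, was not called (0.59). Feedback genes of the ERK pathway split, with 4 of 14 higher and 3 lower, or 2 or 3 in each direction when any 1 well was left out: FLRT3 rose by 2.73 and ETV5 by 1.64, and ETV4 fell by 2.28.

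In other families some receptor genes rose while a ligand gene fell. CXCR4, a chemokine receptor of migrating mesendoderm, rose from 4.62, 1.32 and 5.88 CPM to 34.0, 60.2 and 66.9 CPM, and its ligand gene CXCL12 fell from 40.6 to 48.2 CPM to 9.72 to 10.9 CPM (-2.07). PDGFRA and PDGFRB (2.06 to 6.41 CPM up to 168.3, 154.7 and 102.2 CPM) rose, and PDGFC (-1.26) and PDGFA (-1.14) fell; without day 1 replicate 3 PDGFA was at -0.98 (adjusted p 0.049) and not called. APLNR rose while APLN, which encodes apelin, fell from 0.606, 1.93 and 0.872 CPM to 0.223 to 0.318 CPM; without day 1 replicate 2 its adjusted p was 0.063. APELA, which encodes the other ligand of APLNR, was called higher, from 7.28, 4.66 and 7.97 CPM to 45.1, 13.6 and 12.4 CPM (1.83, adjusted p 0.02). That call was lost without day 1 replicate 1 (adjusted p 0.058), day 1 replicate 2 (0.097) or day 3 replicate 1 (0.95, adjusted p 0.3), so the ligand genes of this receptor were called in both directions. VEGFA, by contrast, rose from 54.0 to 61.3 CPM to 136.6, 224.4 and 248.7 CPM (1.80). These families hold 18 genes in all, of which 8 rose and 5 fell, or 3 to 5 fell when any 1 well was left out.

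In the Notch list 9 of 19 tested genes rose and 2 fell. JAG1, a ligand, rose from 77.0, 50.7 and 84.7 CPM to 155.2, 245.6 and 252.2 CPM (1.62, adjusted p 0.0091), though without day 1 replicate 2 the adjusted p was 0.057. NOTCH2 rose by 1.16 and the target genes HES1 and HEY1 by 1.22 and 2.01, while NRARP, a feedback inhibitor, fell by 1.62 and HES6 by 2.08.

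Of 15 retinoic acid genes 8 rose and 1 fell, and 5 to 7 rose when any 1 well was left out. ALDH1A2, the enzyme that makes retinoic acid in trunk mesoderm, had 0.257 to 0.472 CPM at day 1 and 11.3, 6.52 and 3.25 CPM at day 3 (4.24). CYP26A1, an enzyme that degrades it, had 1.4 to 2.22 CPM at day 1 and 29.2, 52.2 and 93.2 CPM at day 3 (5.02). In the 3 day 3 wells the order of these genes was reversed, with replicate 1 highest in ALDH1A2 and lowest in CYP26A1. The receptor RARB rose from 0.514 to 0.775 CPM to 11.5 to 21.8 CPM (4.57), CRABP2 by 2.02 and RARG by 1.87. LRAT, which stores retinol as esters and is not on that list, fell from 52.2, 128.6 and 54.4 CPM to 2.94 to 3.89 CPM (-4.52).

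HOX genes, which set position along the body axis, were low. Of 28 tested, 11 rose and 1 fell. HOXB1 rose from 1.12 to 1.93 CPM to 40.0, 20.0 and 13.2 CPM (4.02, SE 0.67, adjusted p 1.4e-05), HOXB2 from 0.187 to 0.257 CPM to 15.1, 9.01 and 7.89 CPM (5.53), HOXB3 by 3.50 and HOXB4 by 4.00. The 9 genes HOXB1 to HOXB9 were all called higher, but HOXB5 to HOXB9 reached at most 3.22 CPM, that of HOXB6. Without day 1 replicate 1 HOXB7 was not called (2.25, adjusted p 0.065), and HOXB5, HOXB6 and HOXB8 were at 6.58, 8.34 and 6.49 in place of 4.93, 6.69 and 4.83. Without day 3 replicate 1 HOXB5 and HOXB6 were at 4.07 and 5.73. HOXB genes overlap each other and antisense transcripts in the annotation, so their split is uncertain. Day 3 replicate 1 was the highest well for each of the 9. HOXC6 had 0 counts in every day 1 well and was at least 2.52-fold higher at day 3.

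Day 3 replicate 1 was the highest of the 3 wells for HOXB1, HAND2, ALDH1A2 and FOXF1 and the lowest for MESP2, LHX1, CXCR4, LEFTY2 and OTX2. Over all tested genes, 7 lay more than 4-fold below both other day 3 wells in replicate 1 and 14 more than 4-fold above. In replicate 2 these were 7 and 4, and in replicate 3 they were 9 and 12. By this count replicate 1 did not stand apart from replicate 3, but on the second principal component it lay apart from both. Of the genes far above, 7 of 14 were called in replicate 1, 1 of 4 in replicate 2 and 2 of 12 in replicate 3. With day 3 replicate 1 left out, 2345 genes were called higher and 1496 lower.

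Genes of the mesenchymal state rose, with 10 of 14 higher and 0 lower and a median of 2.02. SNAI1 and SNAI2, repressors of E-cadherin, went from 6.6 to 15.2 CPM to 25.5, 38.9 and 36.9 CPM (1.77) and from 0.386 to 1.58 CPM to 55.3, 58.7 and 59.2 CPM (5.75). VIM, vimentin, went from 288.6, 135.8 and 335.4 CPM to 1572, 875.1 and 716.9 CPM (2.06) and ITGA5, a fibronectin receptor subunit, from 32.3 to 35.7 CPM to 298.8, 426.6 and 448.8 CPM (3.55). CDH11 rose by 3.13, whereas CDH2, N-cadherin, was not called (293.8 to 399.9 CPM and 440.4 to 556.2 CPM, 0.50, adjusted p 0.092).

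Epithelial genes were not lost to the same degree: of 18, 3 fell, 3 rose and 12 were not called. CDH1, E-cadherin, went from 296.4 to 376.7 CPM to 135.1, 151.1 and 201.5 CPM and was not called (-1, SE 0.47, adjusted p 0.11), although its ranges did not overlap. EPCAM, another adhesion protein of epithelia, had overlapping ranges, 191.6 to 230.2 CPM and 139.5 to 223.7 CPM. CLDN7 (-2.10), OVOL1 (-2.38) and the splicing factor ESRP2 (-1.17) fell. Of the keratins of simple epithelia, KRT8 rose from 237.2, 186.7 and 250.2 CPM to 1417, 1185 and 1207 CPM (2.5). KRT19 rose from 55.6 to 78.9 CPM to 1125, 1141 and 1258 CPM (4.08, SE 0.32, adjusted p 1.8e-12). Another keratin, KRT7, counted above among trophoblast genes, was called lower (-2.63). That call was lost without day 1 replicate 1 or 3 or any day 3 well (adjusted p 0.057 to 0.11). The claudin gene CLDN3 was called higher.

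Of 37 extracellular matrix genes 15 rose and 2 fell. FN1, fibronectin, counted above among the mesenchymal genes, had 379.2, 333.0 and 383.8 CPM at day 1 and 3976, 3773 and 4010 CPM at day 3, 10.7-fold higher on the means (3.42, SE 0.40, adjusted p 2e-08). FBN2, a fibrillin of embryonic tissue, went from 105.6, 73.9 and 108.9 CPM to 1754, 1688 and 1645 CPM (4.14). COL5A1 (3.89), COL9A2 (4.56), COL4A6 (2.71) and NID2 (3.49) rose, and LAMA1, the alpha chain of embryonic laminin, rose by 2.05. THBS2, thrombospondin 2, went the other way, from 122.9, 120.1 and 138.0 CPM to 0.670 to 0.830 CPM, 166-fold lower on the means. The fibrillar collagens COL1A2 (0.98) and COL3A1 (-0.24) and the proteoglycan VCAN (-0.26) were not called.

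Enzymes that make hyaluronan, the large sugar polymer of the embryonic matrix, changed over. HAS2, the form needed for the heart's cardiac jelly, had 14.3, 13.4 and 14.6 CPM at day 1 and 1179, 1162 and 1163 CPM at day 3, 82.7-fold higher on the means (6.37, SE 0.49, adjusted p 1.2e-12). HAS3 fell from 66.0, 60.0 and 63.3 CPM to 2.78, 3.43 and 2.98 CPM (-4.36, SE 0.53, adjusted p 4.3e-08). HAPLN1, which links hyaluronan to proteoglycans, rose from 5.63, 2.67 and 5.82 CPM to 826.6, 414.7 and 394.1 CPM (6.85).

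Metallothioneins, small proteins that bind zinc and copper, fell almost as a family, 7 of 8 tested genes. MT2A had 5.66, 10.1 and 5.82 CPM at day 1 and no more than 3 counts in any day 3 well, at least 62.6-fold lower. MT1X went from 16.6, 10.7 and 16.7 CPM to 1.03, 1.15 and 1.25 CPM (-3.67). The copies are alike in sequence, so the sum over the 7 is the safer value: 47.5 ± 0.470 CPM at day 1 and 1.81 ± 0.1 CPM at day 3 (SD, n = 3 each). At day 0 MT2A had been at 13.2 ± 0.210 CPM and in pluripotent cells on LN-521 at 29.2 ± 3.41 CPM (SD, n = 3 each), so its mean was lower in each of these groups in turn up to day 3. MT3 was at 0.0337 to 0.149 CPM and was not called.

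Promoters of 2 of these genes, with at least 51.4-fold and 62.6-fold lower levels, are shown for their many matches to the core of the metal response element, the site of the zinc-sensing factor MTF1, searched as TGCACNC or TGCGCNC on both strands with overlaps allowed. In the 250 bases before the start, MT1H had 8 matches, MT2A 7, MT1X 4 and MT1B, which was not tested, 3; these are the 4 list members with a sequence in the RefSeq table. Of 27305 promoters 24.7% had a match and 1.56% had 3 or more. Matches are in capitals, 5′ to 3′ (GRCh38.p14, plus strand, MT1H at chr16:56669564-56669813 and MT2A at chr16:56608334-56608583).
MT1H: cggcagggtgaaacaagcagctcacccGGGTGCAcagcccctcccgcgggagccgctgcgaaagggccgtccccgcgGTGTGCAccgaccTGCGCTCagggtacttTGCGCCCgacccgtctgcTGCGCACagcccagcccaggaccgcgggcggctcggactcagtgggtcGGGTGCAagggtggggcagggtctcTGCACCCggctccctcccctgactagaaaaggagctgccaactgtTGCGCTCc
MT2A: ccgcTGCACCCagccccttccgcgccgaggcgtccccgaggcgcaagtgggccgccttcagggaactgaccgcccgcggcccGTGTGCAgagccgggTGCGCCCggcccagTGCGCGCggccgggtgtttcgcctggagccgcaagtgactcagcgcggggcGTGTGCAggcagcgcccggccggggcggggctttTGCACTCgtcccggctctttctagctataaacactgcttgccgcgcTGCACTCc

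Genes of the amino acid response, which the factor ATF4 drives, fell: 10 of 15 were lower and 1 higher, with a median of -1.73, or -0.92 on log2(TPM + 1) values. SLC7A11, the cystine importer, went from 201.7, 119.8 and 187.6 CPM to 10.9, 7.45 and 6.75 CPM (-4.34, SE 0.61, adjusted p 7.6e-07) and SLC7A5, a carrier of large neutral amino acids, from 858.3, 835.5 and 1094 CPM to 105.7, 76.0 and 62.2 CPM (-3.51). ASNS, asparagine synthetase, went from 244.7, 136.0 and 226.8 CPM to 39.8, 24.8 and 20.0 CPM (-2.84, SE 0.43, adjusted p 2.4e-06). PSAT1 (-2.32) and PHGDH (-1.27), enzymes of serine synthesis, fell with them. Day 1 replicate 2 was the lowest of the day 1 wells for these 5 genes. ATF4 mRNA itself was not called (-0.37, adjusted p 0.40), and DDIT4, a stress-induced inhibitor of mTORC1, rose from 21.5, 36.4 and 31.6 CPM to 178.4, 265.2 and 233.8 CPM.

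The promoter of ASNS is shown because it holds a match to the amino acid response element, searched as TGATGNAA on both strands, as do those of CHAC1 and ATF3, a gene called lower in only 1 of the 6 fits with a well left out; these are 3 of the 13 list members with a sequence; 3.19% of 27305 promoters had one. The match, in capitals, lies 68 bases before the start (chr7:97872409-97872658, minus strand, GRCh38.p14, 5′ to 3′).
ASNS: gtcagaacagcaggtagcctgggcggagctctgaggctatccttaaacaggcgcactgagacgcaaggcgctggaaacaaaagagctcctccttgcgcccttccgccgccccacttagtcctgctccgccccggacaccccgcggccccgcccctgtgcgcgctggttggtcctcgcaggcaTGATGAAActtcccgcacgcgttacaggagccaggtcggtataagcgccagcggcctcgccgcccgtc

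Glycolysis and hypoxia genes rose in 9 of 18 cases and fell in 0, with a median of 1.04. LDHA, lactate dehydrogenase, went from 403.8, 501.2 and 379.0 CPM to 1192, 1357 and 1670 CPM (1.72), PGK1 from 443.5 to 564.9 CPM to 858.0, 1181 and 1300 CPM (1.17), and PFKFB4, a regulator of glycolysis, from 10.1, 24.3 and 10.6 CPM to 119.1, 156.0 and 157.7 CPM (3.26). BNIP3 and HK2 each rose by 1.5, and CA9, a classical hypoxia gene, was not called at 0.278 to 0.707 CPM. Day 1 replicate 2 was the highest day 1 well for LDHA, PGK1, PFKFB4 and BNIP3. Of 21 genes of cholesterol and fatty acid synthesis 2 rose and 0 fell, a share of rises near the 11.0% among all tested genes.

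Of 24 genes of DNA replication and mitosis, 1 rose and 1 fell, with a median of -0.41, and the single rise, TYMS, was lost whichever well was left out. The single fall, CCNE1 (-1.02), was lost without day 1 replicate 1 or 2 or day 3 replicate 2 or 3 (adjusted p 0.051 to 0.11). MKI67 was at 116.7 to 120.4 CPM and 173.8 to 198.0 CPM and was not called (0.67, adjusted p 0.32). CCND1 fell from 485.2, 405.3 and 502.4 CPM to 123.3, 116.4 and 113.7 CPM and CCND2 from 544.6, 465.8 and 586.0 CPM to 183.3, 264.5 and 297.9 CPM (-1.10, or -0.94 and so not called without day 3 replicate 1). CDKN2B, an inhibitor of the kinases that D cyclins bind, fell from 5.93, 0.161 and 5.70 CPM to 0.186 to 0.397 CPM, and day 1 replicate 2 lay below the day 3 wells. Of the 10 D cyclin and CDK inhibitor genes 4 fell and 1 rose, or 2 to 4 fell when any 1 well was left out. The rise, CCND3 (1.01), was lost without day 1 replicate 2 or day 3 replicate 1 or 2 (0.79 to 0.99, adjusted p 0.05 to 0.12). Of 8 DNA methylation genes DNMT3B fell, as given above, and TET2 rose by 1.83. Of 12 targets and parts of the YAP pathway 1 rose, the kinase gene AXL by 1.36, and of 14 immediate early genes 2 rose and 1 fell, with 0 or 1 in each direction when any 1 well was left out. For both lists this is near the shares among all tested genes, 11.0% higher and 6.80% lower.

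Among protein-coding genes with at least 10 TPM on the higher day and no overlap of wells, the 12 genes with the largest fitted rises were SCGB1A1, CFC1, SOX17, HAND1, BMPER, ADAM12, NRG2, ANPEP, PDGFRA, SAMD11, HAPLN1 and SEMA6D. SCGB1A1, a secretoglobin known from airway club cells, had 0 counts in every day 1 well and 4.89, 8.08 and 4.98 CPM at day 3, at least 61.7-fold higher, a bound that does not fix its place among the 12 or show that it belongs there. ADAM12, a metalloprotease of muscle and mesenchyme, rose from 0.236 to 0.405 CPM to 55.8, 67.8 and 58.2 CPM (7.63), and NRG2, a ligand of ErbB receptors, from 0.0934 to 0.168 CPM to 21.1, 30.4 and 26.9 CPM (7.60). ANPEP, the aminopeptidase CD13, rose from 0.374 to 0.741 CPM to 58.0, 103.1 and 96.6 CPM and stood at 6.39 ± 1.83 CPM at day 5 (SD, n = 5). SEMA6D, a semaphorin, rose from 0.578 to 1.4 CPM to 98.3, 115.7 and 124.9 CPM.

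The 12 largest falls were THBS2, MT1H, PCSK1, DKK4, NODAL, MT1G, FAM167A, GBX2, LRAT, CDX1, HAS3 and SLC7A11. PCSK1, a protease of prohormones, fell from 45, 94.7 and 50.7 CPM to 0.558 to 0.993 CPM (-6.41, SE 0.77, adjusted p 3.5e-08). GBX2, a homeobox gene of the hindbrain border that is also turned on early by Wnt, fell from 62.5, 39.5 and 67.7 CPM to 1.66 to 3.02 CPM (-4.68). FAM167A had 86.6 to 92.4 CPM at day 1 and 2.87 to 3.97 CPM at day 3, and at day 0 it was at 1.30 ± 0.329 CPM (SD, n = 3). Of these 12 genes MT1H and MT1G were higher at day 0 than at day 1, at 25.4 ± 1.66 and 29.7 ± 2.51 CPM (SD, n = 3 each), and the other 10 were lower at day 0. MT1H was at -7.13 without day 3 replicate 1, and MT1G at -6.19 without day 3 replicate 3.

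By the same rule, the long non-coding genes with the largest rises were AC006064.5, GATA6-AS1 and H19. AC006064.5 overlaps the small RNA gene SCARNA10 and NCAPD2, so its reads are uncertain. Its call (8.70, SE 3.27, adjusted p 0.042) was lost whichever well was left out, with values of 8.13 to 11.95 and adjusted p of 0.051 to 0.13. GATA6-AS1, antisense to GATA6, rose from 0.342 to 0.386 CPM to 22.8, 15.0 and 12.8 CPM (5.51), and the imprinted H19 from 1.99 to 3.14 CPM to 33.3, 26.0 and 19.3 CPM (3.40). The largest falls were in HPAT5 (65.5 to 78.2 CPM down to 1.68 to 2.74 CPM), AL356488.2 and AC064802.1. AL356488.2 overlaps the small RNA gene SCARNA2, and its call (-3.93, adjusted p 0.026) was lost in 4 of the 6 fits with a well left out, those other than without day 1 replicate 2 or day 3 replicate 1 (adjusted p 0.053 to 0.11). Without day 3 replicate 1 it was at -5.41.

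**Figure D5:**
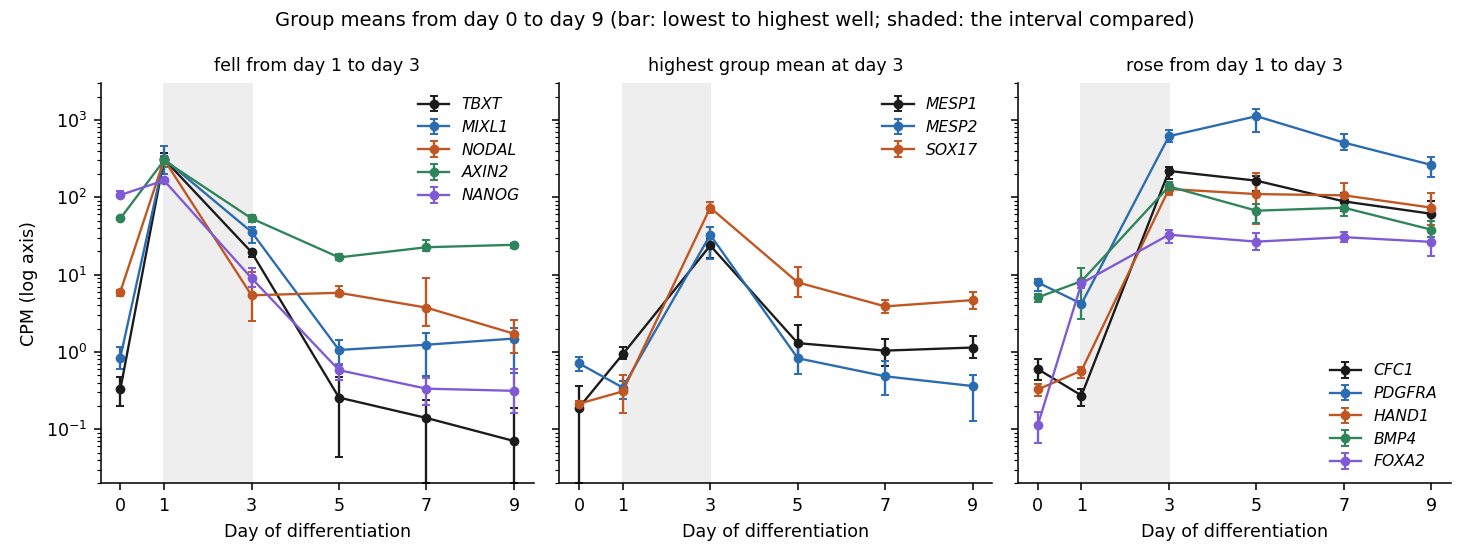
Mean CPM (log axis) of 13 genes in the groups from day 0 to day 9, 3 wells per group up to day 3 and 5 from day 5 on, with bars from the lowest to the highest well and the compared interval shaded; bars are drawn down to 0.02 CPM. TBXT, MIXL1, NODAL, AXIN2 and NANOG had their highest mean at day 1 and MESP1, MESP2 and SOX17 at day 3, while PDGFRA had its highest at day 5.

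Across the neighbouring days the genes called at this step followed several courses. TBXT, MIXL1, NODAL, AXIN2 and NANOG had their highest mean of all 12 groups at day 1. By day 5 TBXT was at 0.257 ± 0.169 CPM and MIXL1 at 1.06 ± 0.286 CPM (SD, n = 5 each). AXIN2 was at 53.2 ± 1.79 CPM at day 0 and 53.3 ± 5.10 CPM at day 3 (SD, n = 3 each). NANOG was at 107 ± 11.8 CPM at day 0 and 165 ± 12.9 CPM at day 1. At day 3 it lay far below both, at 9.01 ± 2.73 CPM (SD, n = 3 each). PDGFRA was higher still at day 5, at 1120 ± 286 CPM (SD, n = 5). CFC1, HAND1, BMP4 and FOXA2 had their highest group mean at day 3, but for HAND1 and FOXA2 a later group lay within the spread. HAND1 was at 128 ± 18.3 CPM at day 3 (SD, n = 3) and 110 ± 62.9 CPM at day 5 (SD, n = 5). FOXA2 was at 32.8 ± 6.28 CPM at day 3 (SD, n = 3) and 30.5 ± 3.83 CPM at day 7 (SD, n = 5).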

How the data were processed

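RNA of 44 wells was sequenced, of which 6 are compared here. Per the submitters' processing notes the tools were cutadapt, STAR 2.5.2b and RSEM 1.2.31 with hg38. The counting annotation and strand setting are not given in the sources used here, so antisense and overlapping genes are uncertain. The authors deposited estimated counts per gene, and separately TPM, which is scaled for transcript length and depth. RNA integrity scores and lanes are as deposited. Gene symbols and positions came from GENCODE 29 (GRCh38), which matched 56769 of 60499 gene identifiers, and promoters from RefSeq (GRCh38.p14). Other motifs were searched in the same way and are not shown. A T-box motif was in 0 of 13 cardiac and lateral plate mesoderm promoters, against 0.787% of all promoters. A FOXH1 motif was in 1 of 16 Nodal list promoters, against 2.83%. An E-box of the Snail type was in 2 of 8 epithelial junction promoters, against 17.5%.

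Estimated counts were rounded, filtered by edgeR's filterByExpr and scaled by TMM. Genes were fitted with edgeR 4.0.16 (R 4.3.3, quasi-likelihood) over all 44 libraries with 1 mean per group, and p-values were adjusted by the Benjamini-Hochberg method over 22955 genes. A standard error is the log2 fold change divided by the square root of its F statistic. Fold changes against a group with no more than 3 counts per well are lower bounds. On counts simulated from this fit, with 200 genes above 1 CPM at day 1 changed, 157 of the 200 were called, and 10 unchanged genes of 21814 fitted. Of the changed genes 32% were called at 2-fold and 88% to 98% at 4-fold to 16-fold. With so few genes changed, the simulation cannot give the error rate of the real comparison.

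The genes and the 35 lists were chosen with earlier results of these data known. Also named were the 12 largest rises and falls among called protein-coding genes, and 3 each among long non-coding genes, with at least 10 TPM on the higher day and wells that do not overlap. Alternatives were other scalings and filters, DESeq2 1.42.0, limma 3.58.1 on log2(TPM + 1), other sets of libraries, a lane term, a block by well number, and each well left out. Some members of the lists are counted but not reported here by name.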

Additional observations from a re-analysis of the deposited data

How the results depend on the processing

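No gene called in the main analysis was called in the opposite direction under any alternative run, but many calls were not shared. Of the 4093 main calls, 1511 to 1765 were also called the same way in the 4 limma fits of TPM values. The TPM fit without a filter tested all of the 4093 and shared 1549. With limma on log2(TPM + 1) 1050 genes were called higher and 523 lower, with a pseudocount of 0.1 in place of 1 these were 1318 and 539, without a filter 1065 and 531, and with TPM rescaled to protein-coding genes 848 and 731; fewer genes were tested in the filtered TPM fits, 13664 and, rescaled, 13673. The share of calls that were higher was 61.9% in the main analysis, 66.8% with limma on log2(TPM + 1), 71.0% with the smaller pseudocount and 53.7% after rescaling. At a log2 fold change of at least 2, 1321 were higher and 516 lower (71.9% higher), and with no fold threshold 3609 and 2970. Leaving out 1 well gave 2099 to 2345 higher and 1277 to 1496 lower. Over the 4 TPM fits the median log2 fold change was 1.96 to 3.94 for cardiac and lateral plate mesoderm, 1.19 to 2.56 for definitive endoderm, -1.17 to -0.92 for ATF4 genes, -2.87 to -2.38 for streak factors, -1.17 to -0.82 for pluripotency, 1.89 to 2.64 for BMP targets and -0.39 to -0.24 for replication and mitosis. Some other list medians depended more on the fit. In the same TPM fits FGF ligands and receptors were at -0.03 to 0.7, against -0.55 in the main analysis. Secreted Wnt antagonists were at -0.04 to 0.18 against -0.75. HOX genes were at 0.02 to 3.47 against 1.83, and paraxial and presomitic mesoderm at 0.17 to 2.96 against 1.78. The counts under the other scalings, filters, sets of libraries and DESeq2 lay within 1.5 times the main counts. A fit of the day 1 and day 3 wells alone, which takes the spread from these wells only, called 2603 genes higher and 1916 lower of 17513 tested.

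The labels do not say that same-numbered wells of different days are tied, so the numbers were not taken to pair the wells. Same-numbered wells shared a lane, and their deviations correlated at 0.232, 0.137 and -0.137 over 11471 genes. Not every well correlated best with its own number. With the replicate block, 2476 genes were higher and 1509 lower, or 2580 and 1889 in a fit of the 6 wells.

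Some genes that were not called changed sign. CER1 was at 0.07 and 0.08 with the block (all libraries and 6 wells), at 0.17, 0.18, 0.17 and 0.02 in the TPM fits in the order above, and at -0.33 to 0.54 with a well left out. VCAN was at 0.17, 0.17, 0.17 and 0.02 in the same TPM fits. TNNT2 was at -0.01 with the block, -0.07 with rescaled TPM, 0.00 with no filter and -0.14 to 0.28 with a well left out, and TTR at -0.02 with rescaled TPM and -0.25 to 0.40 with a well left out. Over the fits with a well left out AFP was at -0.35 to 0.11, BMPR1A at -0.05 to 0.02, CDX4 at -1.15 to 0.05, MEOX1 at -0.05 to 1.48, MSGN1 at -0.32 to 0.53, MYH7 at -0.67 to 1.01, SOX1 at -2.05 to 0.25 and TCF15 at -0.08 to 0.37. The cause was not tested. A floor of 3 counts was 0.0934 to 0.119 CPM in these wells, and changes below it were not detectable at this depth.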
